A study of Drosophila melanogaster with 12 samples.

Results

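The difference between wings with RNA interference (RNAi) against the ecdysone receptor gene EcR and wild-type wings was measured 6 h before puparium formation, in 4 of the 12 samples of the study. Its members are the genes whose normalized count averaged 10 or more across the 8 RNA libraries, 7775 of the 15240 genes in the deposited table. RNA-seq was also made at 6 h after puparium formation, and the remaining 4 samples are CUT&RUN maps of a tagged EcR on DNA, which are not analysed here. All animals were Drosophila melanogaster females per the labels, raised at 25 degrees, and the larval wings (-6 h) came from wandering larvae. Prepupal wings (+6 h) came from animals staged as white prepupae. Wild-type animals have the genotype +/+ on each chromosome. EcR-RNAi animals were yw/yw and carried Vg-GAL4, UAS-Flp and Tub>>CD2>>GAL4, with UAS-GFP opposite UAS-EcR-RNAi[104]. In a system of this kind GAL4 under vestigial control drives the Flp recombinase, which removes the CD2 cassette, so that cells with a history of Flp activity express GAL4 and with it the hairpin and GFP. The reads do not separate cells with the hairpin from cells without it. Wild type carries none of the transgenes by its genotype, and the labels do not name its strain, so any difference in strain background and the loss of EcR cannot be told apart. Each group has 2 libraries, and nothing in the labels states that they are separate cultures or animals, so every p-value speaks only of the variation between these libraries, which could be technical in origin.

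Ecdysone is the steroid that times the moults and metamorphosis of insects. Its receptor is a pair of nuclear receptors, EcR and Ultraspiracle, which activates target genes when the hormone is bound and can repress targets when it is not. Around puparium formation a hormone pulse induces early genes, most of them transcription factors, which regulate each other and later genes, and the wing disc everts, lays down cuticle and ends its larval programme.

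Depth in the larval libraries lay between 6878259 and 10016236 reads, and over all 8 libraries between 6444939 and 10016236. Counts of the EcR-RNAi pair at -6 h differed by a chi-square of 30.4 per degree of freedom, against 10.8 in wild type at -6 h and 17.4 in wild type at +6 h. The median absolute log2 difference between replicates was 0.17 in each of these 3 pairs. The EcR-RNAi larval libraries stood at -44.0 and -29.5 on the leading principal component of all 8 libraries (67.4% of the variance), where larval wild type stood at -63.6 and -65.1. The +6 h libraries lay on the other side, at 77.06 and 70.05 in wild type and 27.93 and 27.11 in EcR-RNAi. One library also goes against its label. The RNAs roX1 and roX2, which belong to the male dosage compensation complex of flies, were at 342 and 18 and 28.3 and 0 normalized counts in replicates 1 and 2 of EcR-RNAi, against 16.5 and 14.7 and 0 and 0.641 in wild type. Replicate 1 of EcR-RNAi stood far above the other 3 larval libraries, which goes against its female label. The same holds for replicate 2 of wild type at +6 h, where roX1 was at 26.8 and 443 in replicates 1 and 2, against 32 and 26.6 in EcR-RNAi. These RNAs were picked after their values were seen, and their part in the results was not tested. Without replicate 1 of EcR-RNAi the genotype comparison called 697 raised and 562 lowered genes, without replicate 2 it called 407 and 146.

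Markers of other tissues were measured beside those of the wing disc, because discs are dissected from among them. All 12 wing disc epithelium markers passed the filter, with a summed level of 31113 to 33089 normalized counts in wild type and 24286 to 31791 in EcR-RNAi. Of these, 1 of 12 was called, ap, which was lowered. Over all genes tested, limma called 7.51% raised and 3.36% lowered. These are the shares to set beside the counts of each marker list, and a difference from them was not tested. Fat body markers summed to 641 and 242 in wild type and to 2018 and 4906 in EcR-RNAi, with 6 of 8 raised. Gut protease and digestive markers summed to 4.84 and 5.12 in wild type and to 1414 and 377 in EcR-RNAi, where 7 of 14 had no read in either EcR-RNAi library. The 4 of 14 that passed the filter on low values did so only through their EcR-RNAi larval level, so their direction was set by the filter. Hemocyte markers summed to 487 and 327 in wild type and 1020 and 689 in EcR-RNAi, with 2 of 7 tested raised. Salivary gland markers summed to 126 and 17.9 in wild type and 2.92 and 8.19 in EcR-RNAi, with 6 of 8 at 0 in EcR-RNAi and 1 tested and not called. Trachea markers stood at 8859 and 7697 against 15918 and 22959, with none of 5 called by limma, 3 higher and 1 lower at an unadjusted p under 0.05, and 2 raised each by edgeR and DESeq2. Myoblast markers had 3 of 8 raised, with 0 without replicate 2 of wild type, 1 without replicate 2 of EcR-RNAi 2 without either of the others and 1 in DESeq2. Differentiated muscle markers had 3 of 8 raised and neuron and glia markers 1 of 6, whose call ended without either wild-type library and without replicate 2 of EcR-RNAi. The part of these tissues in the results was not tested. In these bulk samples, a larger share of cells of a type and more RNA per cell cannot be told apart.

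EcR, the target of the hairpin, had 2194 and 1924 normalized counts in the wild-type libraries and 1634 and 1307 in the EcR-RNAi larval libraries. Both EcR-RNAi libraries lay below both wild-type libraries. On the log2(normalized count + 1) scale, used for every fold change here, EcR was lower by a log2 fold change of -0.49 ± 0.14 (standard error), limma adjusted p = 0.0449. The call lies near the threshold of 0.05 and was kept in 12 of 20 alternative analyses. It ended without replicate 1 of wild type (-0.40, adjusted p = 0.193), without replicate 2 of wild type (-0.59, adjusted p = 0.0916) and without replicate 2 of EcR-RNAi (-0.33, adjusted p = 0.24). It also ended without either EcR-RNAi library of +6 h (adjusted p = 0.0884 and 0.0898), with the 4 larval libraries alone, without the trend and robust settings of limma, and in edgeR. At +6 h, in other libraries, the difference was -1.55 (limma adjusted p = 1.04e-05), and the difference between the stages was -1.06 (limma interaction, adjusted p = 0.00234). Reads of the hairpin and of EcR mRNA cannot be separated in these counts. Of the 12 genes tested for the receptor, its partner and cofactors, EcR and alien, a corepressor gene, were lowered and none was raised by limma, edgeR or DESeq2, nor at an unadjusted p under 0.05. The lowered count was 0 without replicate 2 of wild type or of EcR-RNAi, 1 without replicate 1 of wild type and 5 without replicate 1 of EcR-RNAi.

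Among the 7775 genes, 584 were raised in EcR-RNAi larval wings (7.51% of those tested) and 261 were lowered (3.36%), at a Benjamini-Hochberg adjusted p under 0.05 in limma. In all 845 called genes (10.9%) the 2 EcR-RNAi libraries lay on 1 side of the 2 wild-type libraries, as they did for 29.9% of all genes on the higher side and 25.4% on the lower side. Raised genes also changed by more: the median size of the log2 fold change was 1.12 for raised and 0.75 for lowered genes. At least 2-fold changes numbered 317 among raised and 78 among lowered genes, at least 8-fold changes 73 and 9. The raised genes started from a lower level, with a median of 100.3 normalized counts in wild type against 374 for lowered genes and 243 for genes that were not called. Genes with no name beyond a CG or CR number made up 46.1% of raised, 41.8% of lowered and 45.0% of other genes. Replicate 2 of EcR-RNAi was above replicate 1 for 446 of the 584 raised genes (76.4%), against 51.1% of genes not called, and was above it for 33.0% of lowered genes. Both counts moved by more than 1.5 times without single libraries: without replicate 2 of wild type at -6 h they were 354 and 100, and the lowered count was 562 without replicate 1 and 146 without replicate 2 of EcR-RNAi. Without replicate 1 of EcR-RNAi, 514 of the 584 raised and 208 of the 261 lowered genes were called again.

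**Figure D1:**
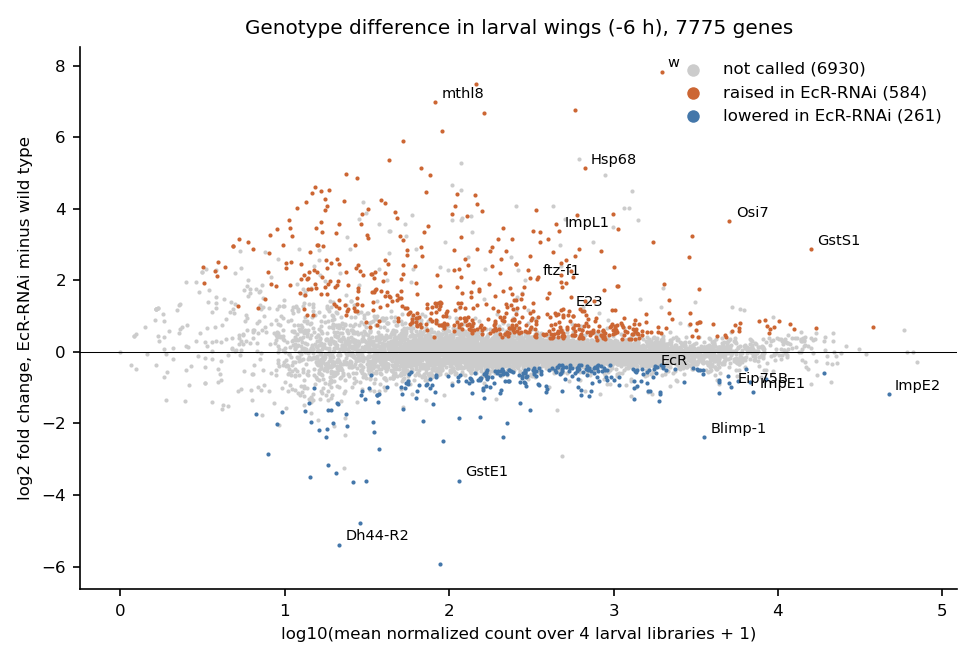
Log2 fold change between EcR-RNAi and wild type at -6 h (vertical axis) against the log10 of the mean normalized count + 1 over the 4 larval libraries (horizontal axis), 1 point per gene for the 7775 genes tested. Orange points are the 584 raised genes, blue points the 261 lowered genes and grey points genes not called; the raised genes reach larger changes than the lowered ones, with w, the white eye colour gene, at the top.

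Genes of the ecdysone response moved in both directions. Of 27 tested, 10 were lowered (37.0%) and 7 raised (25.9%). Of all genes tested 3.36% were lowered and 7.51% raised, shares that also apply to the lists that follow. The median log2 fold change of the ecdysone list was -0.024 against 0.0047 for all genes tested. Counts were 10 and 7 in DESeq2, 10 and 8 in edgeR, and 9 to 11 and 3 to 8 when any of the 4 larval libraries was left out, the lowest raised count without replicate 2 of wild type. The list holds genes induced by the late larval pulse and genes that peak later in wild type.

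The early genes Eip75B and Eip74EF, which code for a nuclear receptor and an ETS-domain factor, were lowered. Eip75B was at 7171 and 6575 in wild type and 3807 and 3194 in EcR-RNAi larval wings, a log2 fold change of -0.98 ± 0.12 (limma adjusted p = 0.000465). Eip74EF stood at 2249 and 1885 against 1208 and 1069, which gave -0.86 ± 0.12 (limma adjusted p = 0.000871). For the third classic early gene, br, a zinc finger factor that directs pupal fate, wild type was at 83851 and 69609 and EcR-RNAi at 78056 and 49683, so the genotypes overlapped. Its log2 fold change of -0.29 ± 0.21 was not called (limma adjusted p = 0.43), and it was 0.031 without replicate 2 of EcR-RNAi and -0.62, then called, without replicate 1.

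The nuclear receptors of the early-late class were lowered together with them. Hr46, known as the inducer of ftz-f1 in prepupae, fell from 2854 and 2589 in wild type to 1159 and 961 in EcR-RNAi (-1.36 ± 0.13, limma adjusted p = 8.16e-05). Eip78C was at 1007 and 967 against 484 and 364 (-1.23 ± 0.14, limma adjusted p = 0.000269), and Hr4 at 6785 and 6333 against 3868 and 3286 (-0.88 ± 0.13, limma adjusted p = 0.000984). Hr39 stood at 2025 and 2265 against 1403 and 1229 (-0.71 ± 0.12, limma adjusted p = 0.00341). In all 4 genes the lower wild-type library exceeded the higher EcR-RNAi library, and each call was kept in all 20 alternatives. Hr78, a related receptor, was at 618 and 574 against 492 and 523 and was not called (limma adjusted p = 0.178).

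The largest decrease of the ecdysone list was that of Blimp-1, a transcriptional repressor that sets the time of ftz-f1 expression in prepupae. Wild-type larval wings had 6124 and 5711 normalized counts and EcR-RNAi wings 1518 and 857, a log2 fold change of -2.37 ± 0.27 (limma adjusted p = 0.00227, kept in all 20 alternatives). The higher EcR-RNAi library stood well under the lower wild-type one. ImpE1 and ImpE2, found as ecdysone-inducible transcripts of discs, were lowered too: ImpE2 was at 64778 and 65732 against 27529.8 and 30420.3 (-1.17 ± 0.14, limma adjusted p = 0.000386). ImpE1 stood at 9278 and 10178 against 4343 and 4569 (-1.13 ± 0.14, limma adjusted p = 0.000371). The locus let-7-C, which makes the microRNAs let-7, miR-100 and miR-125, was at 191 and 279 against 115 and 119 (-0.97 ± 0.19, limma adjusted p = 0.0072), and lost its call without replicate 2 of wild type (-0.70, adjusted p = 0.0806).

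Raised members included the gene downstream of Blimp-1 and Hr46 in the known cascade. ftz-f1, the nuclear receptor that makes prepupal tissue competent to respond to the next pulse, was at 163 and 106 in wild type and 623 and 464 in EcR-RNAi larval wings, a log2 fold change of 2.02 ± 0.29 (limma adjusted p = 0.00753). ImpL1, another ecdysone-inducible disc transcript, rose from 65.8 and 91 to 585 and 1114 (3.37 ± 0.31, limma adjusted p = 0.00116). E23, an ABC transporter gene of the ecdysone response, was at 325 and 339.5 against 686 and 796 (1.15 ± 0.11, limma adjusted p = 8.73e-05). These 3 calls held in all 20 alternatives, and no EcR-RNAi library overlapped a wild-type library.

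Cyp18a1, whose product inactivates ecdysone, was raised from 26.1 and 30.7 in wild type to 88.7 and 189 (2.15 ± 0.34, limma adjusted p = 0.0111). Its call ended without replicate 1 (adjusted p = 0.0855) or replicate 2 (adjusted p = 0.0869) of wild type. Eip93F, which specifies adult fate late in metamorphosis, was low in both genotypes, at 19.4 and 11.5 against 59.5 and 41.8 (1.67 ± 0.32, limma adjusted p = 0.01), and its call ended without replicate 2 of wild type (1.32, adjusted p = 0.0802). ImpE3 stood at 929 and 945 against 1327 and 1763 (0.71 ± 0.14, limma adjusted p = 0.00937), and ended without either wild-type library (adjusted p = 0.0592 and 0.0682).

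The remaining raised member, ImpL3, is also a glycolytic gene, and its values are given with that list. Its call ended without either wild-type library and without replicate 2 of EcR-RNAi. The other members of the list were not called. Kr-h1, the juvenile hormone target that blocks metamorphosis, was at 2363 and 2122 in wild type and 2335 and 2097 in EcR-RNAi larval wings. That is a log2 fold change of -0.017 ± 0.13 (limma adjusted p = 0.957), and its libraries interleaved. Hr38, a receptor of the NGFI-B family, was near the detection limit, at 2.9 and 1.28 against 7.8 and 10.6, with 1.76 ± 0.51 and an adjusted p = 0.0517 in limma. The bZIP factor gene vri was at 0.50 ± 0.18, the zinc finger gene crol at 0.071 ± 0.13, the kinase gene Eip63E at -0.024 ± 0.12, the metabolic genes Eip55E at 0.26 ± 0.13 and Eip71CD at 0.15 ± 0.13, and ImpL2, a gene for an insulin-binding protein, at -0.16 ± 0.15. Eip63F-1, which codes for a calcium-binding protein, was under the filter on low values, with 17.4 and 14.7 in wild type and 6.82 and 6.55 in EcR-RNAi.

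**Figure D2:**
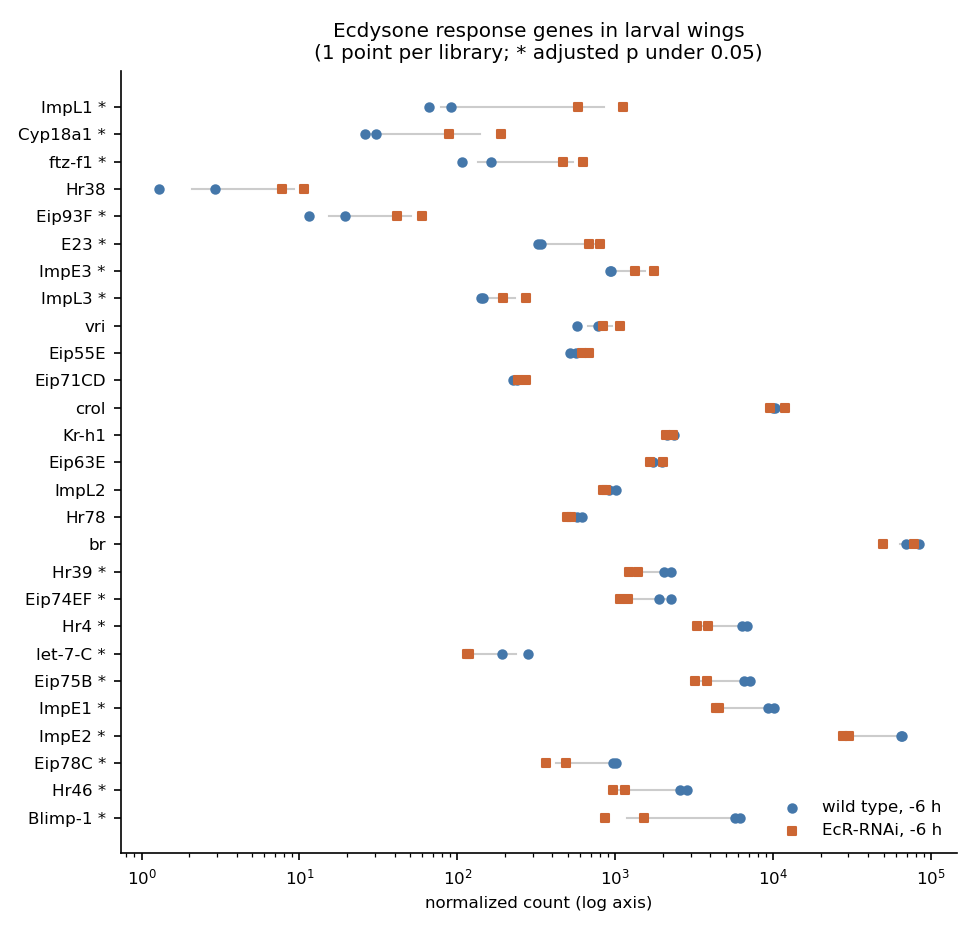
Normalized counts (log axis) of the 27 ecdysone response genes tested, 1 point per larval library, wild type as blue circles and EcR-RNAi as orange squares, ordered by log2 fold change with a grey line between the group means and an asterisk at called genes. The 7 raised genes stand in the upper rows and the 10 lowered genes in the lower rows, from ImpL1 at 3.37 to Blimp-1 at -2.37, and no called gene has overlapping genotypes.

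Osiris genes, an insect family of transmembrane proteins tied to cuticle formation, were raised as far as they were called. Of the 24 deposited members 13 were tested, and 5 rose and none fell, neither in limma, edgeR or DESeq2 nor at an unadjusted p under 0.05; the median log2 fold change was 1.24. Osi7 was at 602 and 739 in wild type and 5161 and 13763 in EcR-RNAi larval wings (3.66 ± 0.45, limma adjusted p = 0.00557). Osi2 rose from 42.6 and 34.6 to 468 and 803 (3.96 ± 0.24, limma adjusted p = 8.23e-05) and Osi24 from 71.6 and 74.9 to 161 and 188 (1.24 ± 0.12, limma adjusted p = 8.96e-05). In Osi7, Osi14 (65.8 and 51.2 against 387 and 925) and Osi2 the EcR-RNAi libraries differed widely from each other, replicate 2 being the higher in each. The raised count was 3 without either wild-type library and 7 without either EcR-RNAi library, and 7 in edgeR and in DESeq2. Without a wild-type library Osi14 lost its call (3.52 and 3.16), and the Osi7 call ended with the 4 larval libraries alone (adjusted p = 0.076). At +6 h 11 of the 13 were lower in EcR-RNAi, the 5 raised in larvae among them.

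The apical extracellular matrix, which holds zona pellucida domain proteins and shapes cells and wing surface, gave 6 raised and 2 lowered of 13 tested, with a median of 0.54. dy, which codes for such a protein needed for wing cell size, was at 137 and 146 in wild type and 618 and 1149.8 in EcR-RNAi larval wings (2.56 ± 0.26, limma adjusted p = 0.000953). mey rose from 42.6 and 37.2 to 209 and 228 (2.43 ± 0.19, limma adjusted p = 3.01e-05) and m from 38.7 and 42.3 to 69.2 and 85.2 (0.91 ± 0.14, limma adjusted p = 0.00201). dp, which codes for the giant matrix protein Dumpy, was at 9303 and 8121 against 15738 and 14143 (0.78 ± 0.14, limma adjusted p = 0.00436; 0.68 and adjusted p = 0.0516 without replicate 2 of wild type). Going the other way, pio, needed for matrix attachment of the wing, was lowered from 5544 and 5488 to 3268 and 3160.3 (-0.78 ± 0.10, limma adjusted p = 0.000537), and neo from 1093 and 1123 to 666 and 699 (-0.70 ± 0.12, limma adjusted p = 0.00275). The genotypes did not overlap in any of these 6 genes. Without replicate 2 of wild type the raised count was 3. Of the 9 wing hair and actin bundle genes tested, f, which codes for the actin bundler Forked, rose from 89.1 and 76.2 to 204 and 187 (1.23 ± 0.13, limma adjusted p = 0.000161). mwh, which restricts each cell to a single hair, was lowered from 36.8 and 42.3 to 17.5 and 18 (-1.11 ± 0.20, limma adjusted p = 0.00373). The list also held wdp, whose role in wing hairs was not examined. The wdp gene was raised (0.55 ± 0.13, limma adjusted p = 0.0189). Its change was 0.37 without replicate 2 of wild type and 0.48 without replicate 2 of EcR-RNAi, neither called.

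Of 122 cuticle protein genes in the table only 40 passed the filter, 11 raised and 2 lowered, with a median of 2.09, or 1.94 with genes at 0 set to their bound. The 122 genes summed to 8468 and 7672 normalized counts in wild type and to 9180 and 22496 in EcR-RNAi larval wings, so the summed level of replicate 1 of EcR-RNAi lay near wild type and that of replicate 2 far above. The summed level of the markers of trachea, a cuticle-lined tissue, was higher in the same 2 libraries (15918 and 22959 against 8859 and 7697). Of these 5 markers 3 were higher and 1 lower at an unadjusted p under 0.05, and limma called none. The marker trh ranged from -0.14 to 0.17 without single libraries. The part of trachea in the cuticle genes was not tested. In edgeR 22 and in DESeq2 26 of the 40 were raised, and leaving out a larval library gave 7 without either wild-type library, 13 without replicate 2 and 23 without replicate 1 of EcR-RNAi. Cpr31A was at 20.3 and 23.1 in wild type and 188 and 235 in EcR-RNAi larval wings (3.22 ± 0.22, limma adjusted p = 1.49e-05). Cpr49Ah rose from 59 and 35.9 to 326 and 544 (3.16 ± 0.29, limma adjusted p = 0.000448), Cpr78E from 91 and 94.8 to 226 and 342 (1.57) and Cpr12A from 642 and 607 to 1271 and 1536 (1.16). All 4 code for structural proteins of the insect cuticle. The 2 lowered genes were Cpr49Ac, at 5867 and 5376 against 3026 and 3287 (-0.83 ± 0.12, limma adjusted p = 0.000871), and Cpr64Aa, at 283 and 192 against 80.9 and 53.2 (-1.81 ± 0.40, limma adjusted p = 0.0137). The call of Cpr64Aa ended without replicate 1 (-1.54) or 2 (-2.09) of wild type and without replicate 2 of EcR-RNAi (-1.52). At +6 h, 9 of the 11 were raised again and 1 was lowered.

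Chitin synthesis and turnover gave 7 raised and 2 lowered of 19 tested, with a median of 1.02. obst-A, which organizes the chitin matrix, was at 1469 and 1523 in wild type and 4241 and 6004 in EcR-RNAi larval wings (1.75 ± 0.17, limma adjusted p = 0.000136). mmy, the gene for the enzyme that makes the sugar nucleotide for chitin, rose from 125 and 122 to 348 and 549.5 (1.82 ± 0.20, limma adjusted p = 0.000534). The chitinase genes split: Cht7 rose from 307 and 284 to 562 and 685 (1.07) and Cht2 from 477 and 484 to 817 and 1024 (0.93), while Cht3 was lowered from 9935 and 11295 to 6335 and 6276 (-0.75 ± 0.12, limma adjusted p = 0.002). Idgf4, a chitinase-like growth factor gene, was at 1713 and 1684 against 919 and 1002 (-0.82 ± 0.12, limma adjusted p = 0.000955). All 6 calls were kept in every alternative, while the raised count of the list was 4 without either wild-type library or replicate 2 of EcR-RNAi.

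For tanning, 4 of 14 tested genes were raised and none was lowered by limma, edgeR or DESeq2, nor at an unadjusted p under 0.05. ple, which codes for tyrosine hydroxylase at the head of the pathway, was at 28.1 and 21.1 against 54.6 and 86 (1.45 ± 0.22, limma adjusted p = 0.00271), and amd at 52.3 and 42.3 against 103 and 149 (1.38 ± 0.18, limma adjusted p = 0.000632). laccase2, whose oxidase crosslinks cuticle, rose from 657 and 732 to 999 and 1072 (0.58 ± 0.11, limma adjusted p = 0.00538). Ddc, the dopa decarboxylase gene, was low, at 4.84 and 5.12 against 18.5 and 17.2 (1.66 ± 0.39, limma adjusted p = 0.0201). Without replicate 1 of EcR-RNAi 7 were raised. The Ddc call held in 12 of 19 alternatives and ended without any 1 of the 4 larval libraries (1.61 to 1.71, adjusted p up to 0.0818), in DESeq2 and with quantile scaling.

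Glycolytic genes were raised in 6 of 12 cases and lowered in none by limma, edgeR or DESeq2, with 1 lower at an unadjusted p under 0.05 and a median of 0.48. Ald, the aldolase gene, was at 1937 and 1780.2 in wild type and 3601 and 4359 in EcR-RNAi larval wings (1.09 ± 0.15, limma adjusted p = 0.000669, kept in all alternatives). Smaller increases were those of Tpi (802 and 771 against 1178 and 1305, 0.66), Eno (2740.4 and 2298 against 3676 and 4018, 0.61) and ImpL3, the lactate dehydrogenase gene (145 and 142 against 195 and 272, 0.68). Without replicate 2 of wild type the raised count was 1, and Tpi (0.63), Eno (0.49) and ImpL3 (0.66) were not called. Without replicate 2 of EcR-RNAi it was 3, and ImpL3 lost its call there (0.44) and without replicate 1 of wild type (0.70). Of 86 cytosolic ribosomal protein genes tested, 8 were raised and none lowered in limma, edgeR or DESeq2 or at an unadjusted p under 0.05, which is 9.30% against 7.51% of all genes; 62 of 86 had EcR-RNAi above wild type in all libraries, against 29.9% of all genes. The 86 had a median of 0.29, 0.19 with quantile scaling, and the raised count was 4 with quantile scaling, 1 without replicate 2 of wild type, 4 without replicate 2 and 15 without replicate 1 of EcR-RNAi.

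Stress and damage genes were raised in part. Hsp68, a heat-inducible chaperone gene of the Hsp70 family, was at 36.8 and 35.2 in wild type and 1208 and 1382 in EcR-RNAi larval wings (5.13 ± 0.18, limma adjusted p = 6.58e-08). At +6 h it was at 75 and 54.3 in EcR-RNAi, below wild type at 96.9 and 83.9. In the heat shock list 4 of 13 tested genes were raised and 1 lowered, and the raised count was 1 without replicate 2 of either genotype and 2 without replicate 1 of wild type. DnaJ-1, its co-chaperone gene, rose from 1319 and 1005 to 2743 and 3653 (1.46 ± 0.24, limma adjusted p = 0.00848; 1.26 without replicate 2 of wild type and 1.25 without replicate 2 of EcR-RNAi, neither called). Hsp27, a small heat shock gene known to respond to ecdysone, was the lowered one, at 24389.6 and 21878 against 15797 and 14731 (-0.60 ± 0.13, limma adjusted p = 0.0133; -0.52 and not called without replicate 1 of wild type). Among 15 JNK and damage genes 5 were raised and 1 lowered, bsk, the JNK gene itself (-0.44), whose call held in 12 of 20 alternatives and ended without either wild-type library (-0.40 and -0.47), without replicate 2 of EcR-RNAi (-0.36), without either EcR-RNAi library at +6 h, in DESeq2, with the 4 larval libraries alone and without the trend and robust settings of limma. Gadd45, a stress response gene, stood at 236 and 199 against 948 and 891 (2.08 ± 0.15, limma adjusted p = 1.49e-05). Ets21C, a factor induced by JNK signalling, was at 19.4 and 16.7 against 92.6 and 77.8 (2.18 ± 0.27, limma adjusted p = 0.000464), and puc, the JNK phosphatase gene, at 456 and 482 against 725 and 667 (0.57 ± 0.10, limma adjusted p = 0.00404). os, which codes for the JAK/STAT ligand Unpaired, rose from 94.9 and 82.6 to 161 and 159.7 (0.85 ± 0.16, limma adjusted p = 0.0069; 0.75 and adjusted p = 0.0647 without replicate 2 of wild type). Cell death and autophagy genes gave no call among 16 in limma and edgeR and 1 raised in DESeq2, with 3 higher and 2 lower at an unadjusted p under 0.05; the inhibitor of apoptosis gene th was at 0.25 ± 0.10.

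Detoxification enzymes were raised in 11 and lowered in 3 of 32 tested (109 in the table), with a median of 0.40. GstS1, a glutathione S-transferase gene, held the largest rise in mean normalized counts of the raised genes, from 3727 and 3879 in wild type to 25463 and 30517 in EcR-RNAi larval wings (2.87 ± 0.14, limma adjusted p = 1.05e-06). Ugt86Di, a glucuronosyltransferase gene, was at 71.6 and 82 against 462 and 396 (2.47 ± 0.19, limma adjusted p = 3.01e-05). In the opposite direction GstE1 was lowered from 232 and 189 to 15.6 and 17.2 (-3.60 ± 0.20, limma adjusted p = 3.92e-06). The 3 calls were kept in all 20 alternatives and the same direction was called at +6 h (2.58, 3.03 and -3.17 on the log2 scale). Without replicate 2 of EcR-RNAi 4 were raised and 2 lowered, without replicate 1 of wild type 6 and 3, and without replicate 2 of wild type 8 and 1. Of 33 antimicrobial and immune genes 6 passed the filter and 5 were raised, with 3 without replicate 1 of wild type, 3 with quantile scaling and 4 or 5 without another larval library. They were Drsl5 (0 and 1.92 against 12.7 and 72.9), a gene of the Drosomycin peptide family named here after its values were seen, and 4 genes of the peptidoglycan recognition family, PGRP-LA, PGRP-LC, PGRP-LF and PGRP-SA. PGRP-LF had 1 read in wild type and 12 in EcR-RNAi (ratio 13.9, 95% counting interval 2.05 to 592). Its call ended in edgeR (adjusted p = 0.0503) and DESeq2 (adjusted p = 0.112), with quantile scaling, with a pseudocount of 5 and with the 4 larval libraries alone. It also ended without replicate 1 of wild type, without replicate 2 of EcR-RNAi and without either EcR-RNAi library of +6 h. PGRP-SA, which starts Toll signalling after bacterial infection, was at 3.87 and 1.92 against 16.6 and 23.7 (2.47 ± 0.39, limma adjusted p = 0.00192). Fat body markers, from a tissue that makes such proteins, were higher in the same libraries, and their part in this was not tested.

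Matrix and basement membrane genes gave 7 raised and 2 lowered of 20 tested, with a median of 0.21, and 4 and 1 without replicate 2 of wild type. Cg25C, a collagen IV gene expressed in fat body and hemocytes, was at 408 and 291 in wild type and 727 and 679.7 in EcR-RNAi larval wings (1.03 ± 0.16, limma adjusted p = 0.00209). Tig, which codes for an integrin ligand, rose from 50.3 and 62.8 to 201 and 159 (1.65 ± 0.27, limma adjusted p = 0.00244) and Timp, the metalloproteinase inhibitor gene, from 22.3 and 21.1 to 61.4 and 67.2 (1.52 ± 0.25, limma adjusted p = 0.00222). Np, a membrane protease gene needed for wing shape, was at 2655 and 2155 against 4226 and 4363 (0.84 ± 0.14, limma adjusted p = 0.00233). Fat body markers were higher in the same 2 libraries (2018 and 4906 against 641 and 242), and their part in the rise of Cg25C was not tested. tnc, the gene for the integrin ligand Tenectin, was lowered from 5899.9 and 6111 to 2850.1 and 2574 (-1.15 ± 0.12, limma adjusted p = 0.000161). mp, which codes for a collagen of the multiplexin type, was at 268 and 294 against 135 and 131 (-1.07 ± 0.19, limma adjusted p = 0.00423; -1.01 and adjusted p = 0.0521 without replicate 2 of wild type).

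Growth and patterning lists held few called genes each. Over all genes tested the share called was 10.9% (7.51% raised and 3.36% lowered), and a difference of these lists from it was not tested. None of 34 cell cycle genes was called by limma, edgeR or DESeq2 and 1 was lowered with quantile scaling, with 1 higher and 2 lower at an unadjusted p under 0.05 and a median of 0.003. In DNA replication 2 of 27 were lowered, RnrL (602 and 660.4 against 462 and 413, -0.53) and mus209, the gene for PCNA (959 and 961 against 719 and 729, -0.41), and 21 of 27 had EcR-RNAi under wild type in all libraries, against 25.4% of all genes. The lowered count was 6 with quantile scaling, 4 with upper-quartile scaling and in edgeR, 1 in DESeq2 and without replicate 1 of either genotype, and 0 without replicate 2 of either genotype. The RnrL call ended without replicate 2 of wild type or of EcR-RNAi (-0.46 and -0.45), and that of mus209 without any 1 of the 4 larval libraries (adjusted p up to 0.111) or of the EcR-RNAi libraries at +6 h (0.0529 and 0.0531). Wingless pathway and wing identity genes gave 1 raised and 2 lowered of 22. ap, the dorsal selector gene, was at 3935 and 4253 against 3217 and 2560.0 (-0.51 ± 0.12, limma adjusted p = 0.0235), and its call ended without either wild-type library (-0.57 and -0.46) and without replicate 2 of EcR-RNAi (-0.35), and without either EcR-RNAi library at +6 h (adjusted p = 0.0559 and 0.0563). The list had no lowered gene without replicate 2 of either genotype. Without replicate 1 of EcR-RNAi, 8 of these 22 and 7 of 16 EGFR and vein genes were lowered. In the full set the lowered EGFR and vein genes were aos, an inhibitor of the pathway (-0.58), and bs, which directs intervein fate (-0.63). Both calls ended without replicate 1 (aos -0.54, bs -0.61) or replicate 2 (-0.62 and -0.64) of wild type. The bs call also ended without replicate 2 of EcR-RNAi (-0.36) or either of its libraries at +6 h (adjusted p = 0.0511 and 0.0515), and that of aos without replicate 1 (-0.47). None of the 12 hedgehog genes was called by limma, edgeR or DESeq2, with 1 lower at an unadjusted p under 0.05. Planar polarity genes gave 2 lowered and 1 raised of 9, and 1 and 0 without replicate 2 of either genotype, with stan, which codes for the cadherin Flamingo, at 4061 and 4428 against 2836 and 2728 (-0.61 ± 0.11, limma adjusted p = 0.00421). l(2)gl, a basal polarity gene, was lowered from 1889.5 and 2507 to 1214 and 856 (-1.09 ± 0.17, limma adjusted p = 0.00315). Dcr-2, which cuts the double-stranded RNA that feeds RNAi, was at 1697 and 2119 against 819 and 701 (-1.32 ± 0.13, limma adjusted p = 8.90e-05). The stan, l(2)gl and Dcr-2 calls were kept in all 20 alternatives.

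**Figure D3:**
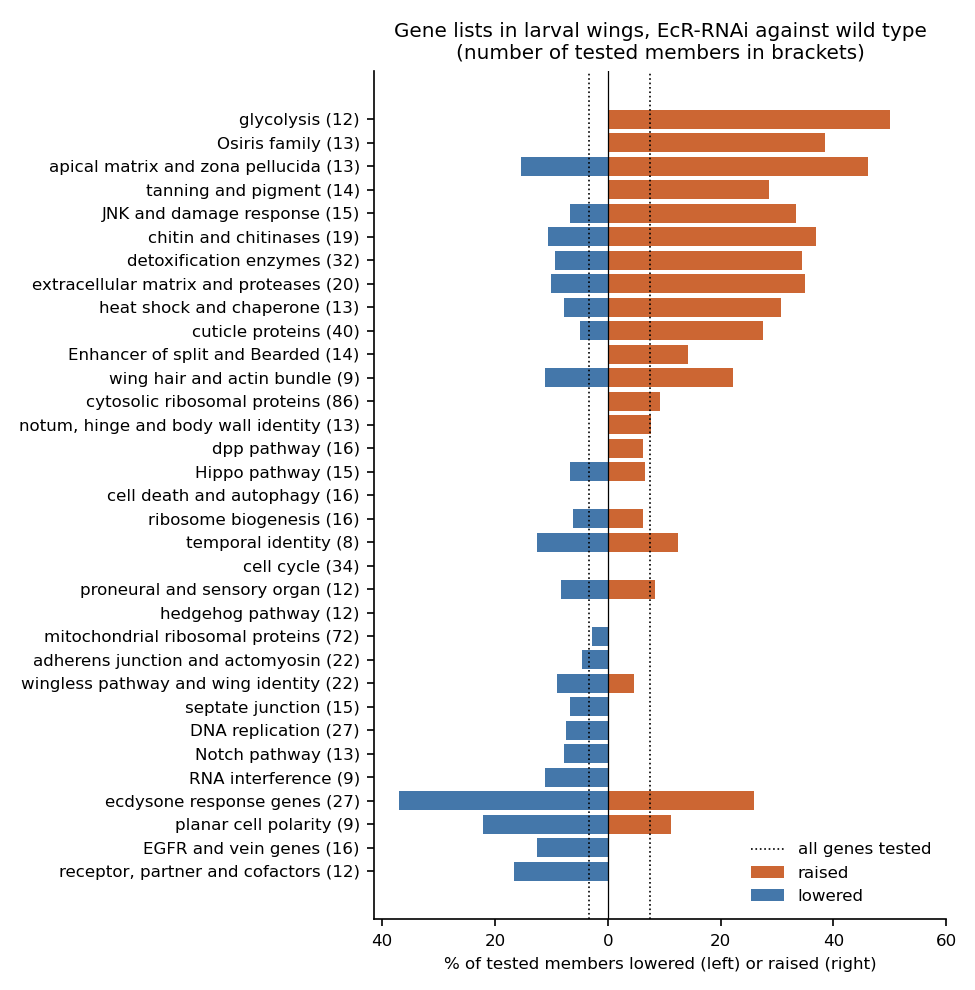
Share of the tested members of each gene list that was raised (orange, to the right) or lowered (blue, to the left) at -6 h, in percent, for lists with at least 8 tested members, whose number stands in brackets. Dotted lines mark 7.51% raised and 3.36% lowered for all genes tested. Glycolysis and Osiris genes pass the right line only. Ecdysone response, apical matrix, chitin and detoxification genes pass both lines, as do several other lists.

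The largest log2 fold change was that of w. The added count of 1 makes the changes of genes with few reads smaller on this scale, so their ratios of reads can exceed that of w. The w gene was at 13.6 and 19.2 in wild type and 3907 and 3899 in EcR-RNAi larval wings (7.83 ± 0.17, limma adjusted p = 5.84e-10). At +6 h the values were 17.9 and 16.8 against 2943 and 3667 (7.49). The white gene is a common marker of fly transgenes, and the part of such markers in this difference was not tested. CHKov1 (6.78 and 11.5 against 1587 and 729.7, 6.77) and CG32641, with 2 reads in wild type and 227 in EcR-RNAi (ratio 131, 95% counting interval 35.9 to 1089), were higher at +6 h too. So were mthl8, a gene of the Methuselah receptor family, with 1 and 362 reads (ratio 418, 74.5 to 16552), and nsr, with 2 and 76 reads (ratio 43.9, 11.7 to 369). CG32641, mthl8 and nsr passed the filter on low values only through EcR-RNAi libraries. Their direction was thus set by the filter, and the +6 h calls are not independent of it. CHKov1 has a close neighbour, CHKov2, and reads may be shared between them.

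Gut serine protease genes were also among the 15 called genes with the largest increase on that scale. Jon65Aiii had 1 read in wild type and 617 in EcR-RNAi larval wings, a ratio of 712 with a 95% counting interval of 127 to 28180. Jon65Aiv was at 1.94 and 1.28 against 509.8 and 135 (6.67 ± 0.75, limma adjusted p = 0.000227). yip7 had 3 and 383 reads (ratio 147, 50.1 to 718) and Jon25Bi 2 and 176 reads (ratio 102, 27.7 to 845). The level in replicate 1 of EcR-RNAi was above that in replicate 2 in all 4 genes, and at +6 h each was at or near 0 in both genotypes. These are the gut markers themselves, so whether they come from wing cells was not tested, and closely related Jon65A genes may share reads. Without replicate 1 of EcR-RNAi the call of Jon25Bi ended (4.17, adjusted p = 0.0552). proPO-A1, a prophenoloxidase gene of crystal cells, was at 2.9 and 4.48 against 184 and 109.7 (4.95 ± 0.56, limma adjusted p = 0.000246). proPO45, its paralog, was also raised, and the other hemocyte markers were not called, with Hml at 110.4 and 52.5 against 129 and 104. Of the fat body markers Lsp1gamma, a larval serum protein gene, rose from 49.4 and 23.1 to 328 and 448 (3.47 ± 0.38, limma adjusted p = 0.00066), replicate 2 being the higher. CG1887 had no read in wild type and 67 in EcR-RNAi, at least 25.8-fold higher when 3 reads for the whole group are taken as its floor. CG1698 was at 2.9 and 1.92 against 75.1 and 186 (5.14 ± 0.39), CG1139 had 2 and 119 reads (ratio 68.7, 18.6 to 574) and CG8664 1 and 96 reads (ratio 111, 19.4 to 4423). CG8664 and proPO-A1 passed the filter on low values only through their EcR-RNAi larval level, and CG1139 only through EcR-RNAi libraries. The direction of CG8664, proPO-A1 and CG1139 was thus set by the filter. CG1887 was not called without replicate 2 of wild type, and CG8664 not without replicate 1 of EcR-RNAi (4.22, adjusted p = 0.0561).

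By difference in mean normalized counts, a measure that was not scaled to gene length, the leading raised genes included GstS1, Osi7 and dp, described above, and 4 others. bnb, known from bangles and beads, stood at 7892 and 6419 against 14283 and 11902 (0.87 ± 0.14, limma adjusted p = 0.00203). Fs(2)Ket, the importin beta gene, was at 5656 and 5957 against 13162 and 8759 (0.89 ± 0.17, limma adjusted p = 0.00636; 0.85 and adjusted p = 0.0501 without replicate 1 of wild type). The non-coding RNA pncr002:3R rose from 592 and 477 to 3232 and 7661 (3.22 ± 0.41, limma adjusted p = 0.00818), and its call ended without replicate 2 of wild type (3.07, adjusted p = 0.0657). RNaseMRP:RNA, the RNA of a processing endonuclease, was at 31586 and 26658 against 45219 and 49085 (0.70 ± 0.18, limma adjusted p = 0.0277; 0.58 and adjusted p = 0.199 without replicate 2 of wild type and 0.64 and adjusted p = 0.0691 without replicate 2 of EcR-RNAi). The call also ended without replicate 1 or 2 of wild type at +6 h (adjusted p = 0.0506 and 0.0521).

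The largest decreases on the same scale were in genes of low level. CG6912 was at 175 and 167 in wild type and 6.82 and 0 in EcR-RNAi larval wings (-5.94 ± 0.90, limma adjusted p = 0.00753), and at 292 and 309 against 0 and 0.986 at +6 h. Dh44-R2, a receptor gene for the diuretic hormone 44, had 107 reads in wild type and none in EcR-RNAi, at least 30.9-fold lower with the same floor. Ir68a, an ionotropic receptor gene, had 152 and 2 reads (ratio of wild type to EcR-RNAi 65.8, 17.9 to 549), and Syn, the synapsin gene, 64 and 3 reads (ratio 18.5, 6.05 to 92.0). Hdc, which codes for histidine decarboxylase, was at 27.1 and 44.8 against 0.975 and 4.91 (-3.39 ± 0.52, limma adjusted p = 0.00172). bgm, an acyl-CoA synthetase gene, was at 41.6 and 50.6 against 6.82 and 0.819 (-3.64 ± 0.68, limma adjusted p = 0.00697; -3.50 and adjusted p = 0.0671 without replicate 2 of wild type). PICK1 was at 58.1 and 69.8 against 9.75 and 8.19 and CG1494 at 56.1 and 57 against 1.95 and 6.55. Each of these 8 genes was called lower at +6 h as well. Apart from Hdc, they passed the filter on low values only through wild-type libraries. The filter thus favoured a lower level in EcR-RNAi, and the +6 h calls are not independent of it. nrm, a cell adhesion gene, fell in larvae from 339 and 369.6 to 91.6 and 48.3 (-2.39 ± 0.39, limma adjusted p = 0.00856; -2.33 and adjusted p = 0.0713 without replicate 2 of wild type) and was not called at +6 h.

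Ranked by the size of the count difference, ImpE2, Hsp27, ImpE1, Blimp-1, Cht3, Eip75B, tnc and Hr4, described above, led the lowered genes together with nmo and alt. nmo, which codes for the kinase Nemo, was at 8813 and 8296 against 5898 and 3893 (-0.84 ± 0.18, limma adjusted p = 0.0153). It lost its call without replicate 1 (-0.79, adjusted p = 0.0913) or 2 (-0.88, adjusted p = 0.0878) of wild type. alt was at 7396 and 7129 against 4566 and 3739 (-0.81 ± 0.13, limma adjusted p = 0.00176).

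At +6 h the genotype means come from other libraries, but the limma fit estimates 1 spread per gene from all 8 libraries. Calls at -6 h and at +6 h are therefore not independent, and the overlaps below were not tested. The +6 h comparison called 1653 raised and 1680 lowered genes (21.3% and 21.6% of those tested, 42.9% together). Of the 584 genes raised in larvae, 204 were also higher at +6 h (34.9%), 207 were lower (35.4%) and 173 were not called. Of the 261 genes lowered in larvae, 151 were also lower (57.9%), 24 were higher (9.20%) and 86 were not called. Among the 6930 genes not called in larvae, 20.6% were higher and 19.1% lower at +6 h. These counts changed with single libraries: raised and higher was 125 without replicate 2 of EcR-RNAi at +6 h and 132 without replicate 2 of wild type at -6 h, and raised and lower was 132 without the latter. Lowered and lower ranged from 70 without replicate 2 of wild type at -6 h to 237 without replicate 1 of EcR-RNAi at -6 h, and lowered and higher from 7 to 67 without the same libraries. Lowered and lower was also 93 without replicate 1 of wild type at -6 h, and with EcR-RNAi at +6 h reduced to 1 library it was 92 (replicate 1 left out) and 96 (replicate 2), where lowered and higher was 12 and 14.

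Genes raised in larvae and lower at +6 h included ftz-f1, at 6359 and 4085 in wild type and 2278 and 2069 in EcR-RNAi at +6 h (-1.23, limma adjusted p = 0.0156). For E23 the +6 h values were 4098 and 4537 against 1956 and 2043 (-1.11, limma adjusted p = 2.01e-05), for ImpL1 65989 and 65088 against 8691 and 9798 (-2.83, limma adjusted p = 0.000591) and for dy 35036 and 38814 against 6878 and 6825 (-2.43, limma adjusted p = 0.000281). Osi7 reached 571450.0 and 457986 in wild type and 112092 and 109756 in EcR-RNAi (-2.21, limma adjusted p = 0.0108). In these 5 genes the EcR-RNAi level lay above wild type before puparium formation and below it after, and the interaction was called in each (limma adjusted p from 2.93e-06 for E23 to 0.00212 for ftz-f1). Cyp18a1 was at 2483 and 2005 against 1076 and 1147 at +6 h and was not called there (limma adjusted p = 0.0554).

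ImpE1, ImpE2, Eip75B, Eip74EF, Eip78C and Hr4 were lower at both stages, with ImpE1 at -2.60 on the log2 scale at +6 h (limma adjusted p = 2.81e-07). Hr46 was not called at +6 h, with 5197 and 5037 against 5287 and 4675 (-0.041, limma adjusted p = 0.819), and its interaction was 1.32 (limma adjusted p = 0.000307). Blimp-1 was at 650.2 and 687 against 1336 and 989, where EcR-RNAi was the higher but not called (limma adjusted p = 0.0568), with an interaction of 3.16 (adjusted p = 0.00141). The 24 genes that turned from lower to higher included let-7-C (62.6 and 56.6 against 124 and 113 at +6 h), Idgf4 (115 and 103 against 164 and 186), pio (1702 and 1774 against 2344 and 2368) and mp (25.4 and 37.8 against 116 and 113). RnrL, mus209 and Hsp27 were among them as well. Raised at both stages were GstS1, bnb (1502 and 1637 against 7972 and 7914 at +6 h), Gadd45, Timp, Tig and most called cuticle genes.

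**Figure D4:**
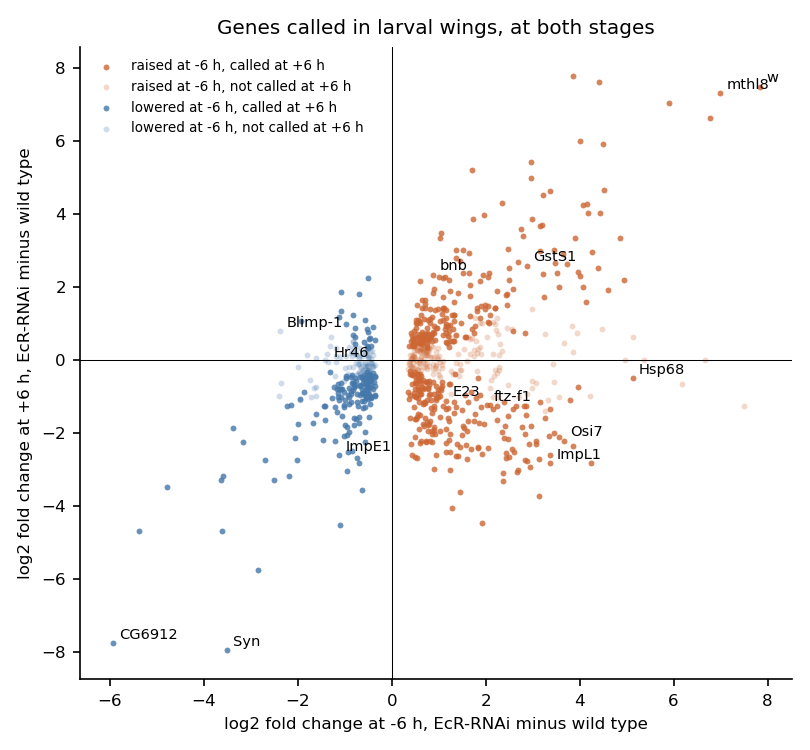
Log2 fold change between EcR-RNAi and wild type at -6 h (horizontal axis) and at +6 h (vertical axis) for the 845 genes called in larvae, 1 point per gene, orange for raised and blue for lowered at -6 h, pale where not called at +6 h. Raised genes fill the upper and lower right, 204 higher and 207 lower at +6 h, and lowered genes lie mostly in the lower left, 151 against 24.

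**Figure D5:**
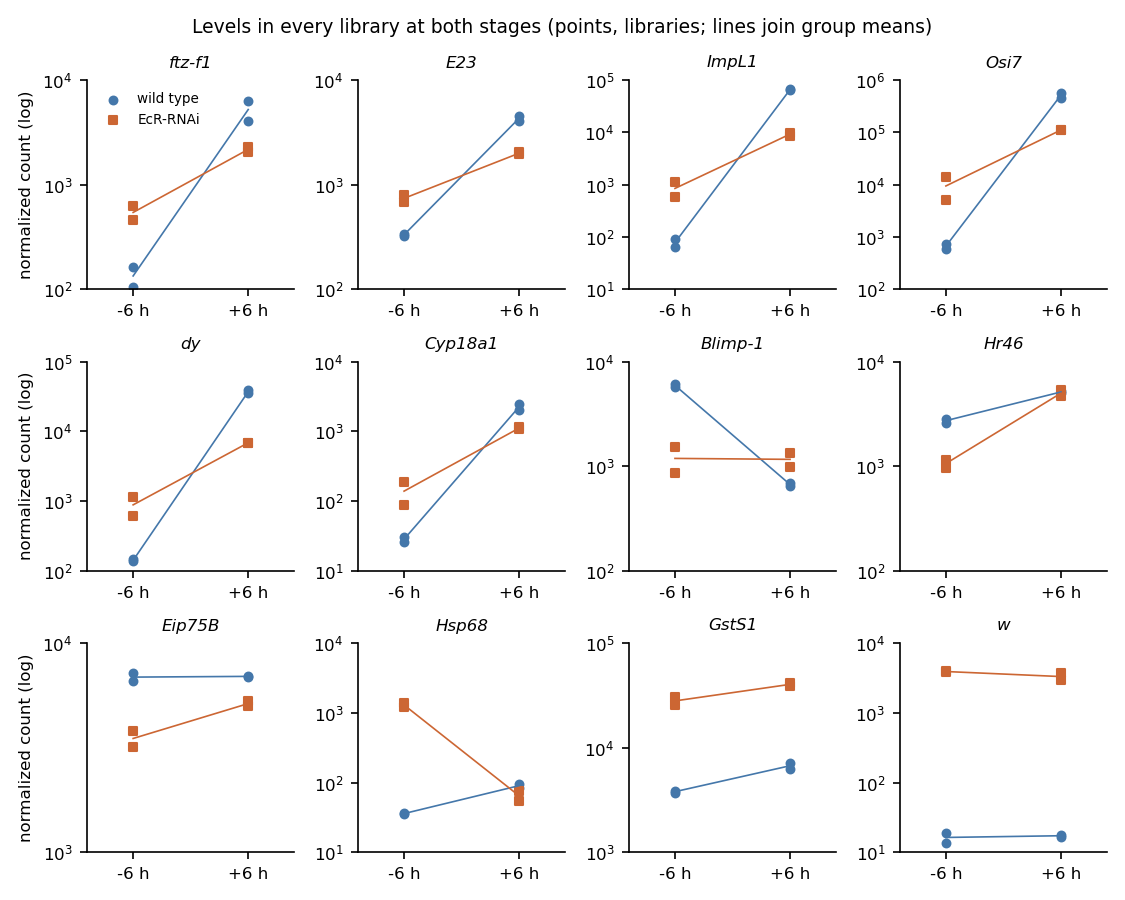
Normalized counts (log axis) of 12 genes in every library at -6 h and +6 h, wild type as blue circles and EcR-RNAi as orange squares, with lines between group means. For ftz-f1, E23, ImpL1, Osi7 and dy the lines cross between the stages; for Hr46 they meet at +6 h, and for GstS1 and w EcR-RNAi lies above wild type at both.

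The authors' deposited table of comparisons lists 586 genes as higher and 181 as lower in EcR-RNAi at -6 h at its adjusted p under 0.05. Of the genes called here, 469 of the 584 raised (80.3%) and 155 of the 261 lowered (59.4%) are among them. That is 80.0% of the 586 higher and 85.6% of the 181 lower genes of the authors. Both analyses rest on the same larval libraries. No gene was called in opposite directions.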

How the data were processed

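RNA-seq of 8 wing libraries was analysed from the table of normalized counts that the authors deposited. These signal values are counts that the authors divided by a size factor per library before deposit, per the deposited table's values; all values were whole multiples of 1 read within 0.1 read (100% of values), so whole reads could be recovered. Per the submitters' processing notes, which give no roles, the RNA tools were DESeq2 1.14.1, Subread 1.24.2, STAR 2.5.2b and SAMtools 1.3.1, on the genome build dm3. No source used here states the strand setting, so reads of antisense or overlapping genes cannot be separated, and paralogs may share reads. The authors also deposited a table of log2 fold changes with p-values and a test score, of which the score was not used and the rest was used only in the sentences that name it.

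Samples were grouped by the stage and genotype in the labels. Values were set to log2(normalized count + 1) and fitted in limma 3.58.1 (R 4.3.3, trend and robust) with 4 group means over 8 libraries, for genes with a mean of at least 10. The call threshold is an adjusted p (Benjamini-Hochberg over all 7775 genes) under 0.05. Of 15240 genes 3291 had no read. Alternatives were edgeR 4.0.16 and DESeq2 1.42.0 on the recovered reads, other scalings, pseudocounts, filters and fits, a replicate block, and leaving out each library. The limma fit was tested on simulated counts. Ratios of genes with 3 or fewer reads in a group carry exact 95% intervals for counting error only. Named genes are EcR, the 15 raised and 15 lowered with the largest fold change, the 10 and 10 with the largest difference in counts, up to 4 called members of each list in each direction by adjusted p, all ecdysone response genes and the tissue markers. Not every gene that this rule names is reported here. The members and lists were chosen with earlier results of these data known. The 2 deposited peak lists were not used here, because no gene positions of dm3 were at hand.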

Additional observations from a re-analysis of the deposited data

Results flagged for a closer look

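The genotype difference was not the same at +6 h as at -6 h for the genes below, by the limma interaction contrast (difference at +6 h minus difference at -6 h, log2, adjusted p under 0.05). The contrast holds the -6 h difference itself, so it is not independent of the choice of genes by that difference. Values below 0 mean that EcR-RNAi stood lower relative to wild type at +6 h than in larvae.

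Among ecdysone response genes the interaction was -6.19 for ImpL1, -3.25 for ftz-f1, -3.16 for Cyp18a1, -2.48 for ImpL3, -2.26 for E23 and -1.92 for vri. It was -1.48 for both ImpE1 and Eip71CD and -0.89 for ImpL2. Values above 0 were 3.16 for Blimp-1, 1.96 for let-7-C, 1.32 for Hr46, 1.05 for Kr-h1, 1.03 for Hr39, 0.84 for ImpE3, 0.61 for crol and 0.55 for Eip75B. For EcR it was -1.06.

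The gut protease genes gave -8.76 for Jon65Aiii, -6.84 for yip7, -6.67 for Jon65Aiv and -5.36 for Jon25Bi, and their reads were at or near 0 in all +6 h libraries. These genes, CG8664 and proPO-A1 passed the filter on low values only through their EcR-RNAi larval level. The sign of their interactions was thus set by the filter, and their adjusted p is no independent evidence of a difference between stages. Other raised genes gave -5.86 for Osi7, -5.62 for Hsp68, -4.97 for CG8664, -4.52 for CG1698, -2.77 for proPO-A1, -2.68 for CG1887 and -1.56 for dp, while bnb gave 1.47 and Fs(2)Ket 1.04. Among lowered genes it was -4.44 for Syn and -2.91 for CG43103, 1.32 for nmo and 1.09 for Hsp27. Fitted values of genes with few reads in a group, such as the gut proteases, Syn and CG43103, depend on the pseudocount. Syn and CG43103 passed the filter only through wild-type libraries at +6 h, which favoured a negative sign.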

How the results depend on the processing

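Of the 153 called genes that the text draws on, 82 kept the call in all alternatives, and no called gene changed direction. The counts of raised and lowered genes at -6 h were 354 to 697 and 100 to 562 over the 8 fits that each leave out 1 library. EcR ranged from -0.65 to -0.33 in these fits. EcR lost its call with the 4 larval libraries alone (-0.49, limma adjusted p = 0.0891), without trend and robust (-0.49, limma adjusted p = 0.121) and in edgeR (-0.48, adjusted p = 0.0606). Genes both raised in larvae and higher at +6 h numbered 125 to 238 without single libraries, raised and lower 132 to 258, lowered and lower 70 to 237, and lowered and higher 7 to 67. Calls were 69.1% raised, and 59.6% with quantile scaling, which moved the median of all genes by -0.069.

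Uncalled genes changed sign in a few alternatives. With quantile scaling these were crol (-0.079), Eip63E (0.015), TpnC73F (-0.12), Syt1 (-0.27), trh (-0.016) and rn (0.013), with upper-quartile scaling trh (-0.00515) and in edgeR rn (0.0056). Without single libraries the lowest and highest values were, for genes with a change of sign, Kr-h1 -0.094 to 0.061, tws -0.46 to 0.16, ptc -0.096 to 0.27, W -0.21 to 0.57, br -0.62 to 0.031, crol -0.0801 to 0.22, Eip63E -0.17 to 0.12, bt -0.51 to 0.32, Act79B -1.40 to 0.38, Tm1 -0.25 to 0.16, TpnC73F -0.50 to 0.87, nimC1 -1.47 to 0.20, Pxn -0.42 to 0.79, crq -0.42 to 0.15, zfh1 -0.035 to 0.52, htl -0.096 to 0.35, Syt1 -0.14 to 0.26, moody -0.47 to 0.049, nrv2 -0.081 to 0.15, tup -0.13 to 0.26, trh -0.14 to 0.17, Dll -0.23 to 0.17, en -0.086 to 0.44, hh -0.086 to 0.0018, bi -0.58 to 0.21 and rn -0.32 to 0.27.

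With the replicate number as a block, 566 genes were raised and 252 lowered, and EcR was at -0.49. The numbers did not pair the samples, since deviations of same-numbered libraries correlated by -0.148 to 0.129. Shares of genes with an EcR peak and promoter motifs were not run. With 2 libraries per group, a difference that was not called is not shown to be absent, and genes under the filter were not tested.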

Other observations

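Neighbouring genes were called together in places, seen after the values were known. On chromosome 2R, 8 tested genes in a row in the RefSeq order were lowered in larval wings, CG14480, ns2, POSH, CG14482, CG42239, Rab4, Dcr-2 and CG14483, with log2 fold changes from -1.32 to -0.63, and 7 of them were lowered at +6 h as well. Also on 2R, CG8213, Np, CG8172, CG8170 and proPO45 were raised in a row (0.84 to 4.38). Of these 5 genes, 4 were lowered and 1 was raised at +6 h (-3.02 to 2.51). The order of genes comes from an annotation of another build than dm3. The labels do not name the wild-type strain, so any difference in background at these places and loss of EcR cannot be told apart. Over whole chromosomes 2R had 8.52% of its tested genes raised and 4.42% lowered, and X had 6.80% and 1.85%.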
